A study of Mus musculus with 9 samples.

Results

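The transcript levels of 10 genes for proteins that neutrophils store in late granules or in the cytosol were followed across 3 mouse myeloid cell lines. They were *S100a8*, *S100a9*, *Camp*, *Ngp*, *Ltf*, *Lcn2*, *Mmp8*, *Mmp9*, *Cd177* and *Chil3*, taken by symbol from the 54347 genes of the count table. Hox-WT and Hox-URE were made from c-Kit+ bone marrow progenitors of a wild-type and a UREd/d mouse (C57BL/6 background) by immortalization with a Hoxb8 fusion protein that needs estradiol. UREd/d means that both alleles lack the upstream regulatory element (URE), which enhances transcription of *Spi1*, the gene for the myeloid transcription factor PU.1. URE-AML, named B22 in the labels, is a line of blasts from an acute myeloid leukemia that arose in a UREd/d mouse. All 3 lines were grown in IMDM with fetal calf serum, IL-3, IL-6, SCF and estradiol, so no line was without these cytokines. Each genotype and stage was 1 line, and 3 poly-A libraries were sequenced per line. Hence every difference below is one between lines, and its p-value measures the spread between libraries, which were not stated to be separate cultures.

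Neutrophils fill their granules in sequence. Azurophil or primary granules with myeloperoxidase and elastase form in promyelocytes, specific or secondary granules with lactoferrin, lipocalin 2 and cathelicidin form in myelocytes and metamyelocytes, and gelatinase or tertiary granules form in band cells. The transcription factor C/EBPε is needed for the genes of specific granules, and the S100A8 and S100A9 proteins make up a large part of the cytosol of the mature cell. These genes thus mark how far granulocytic maturation has gone, although *Lcn2* and the S100 genes are also transcribed in other cells under cytokine or stress signals.

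The 3 lines differed in several of these genes by orders of magnitude, though not in all. Hox-WT had low levels, with *S100a8* highest, while Hox-URE had nearly none of any except *Lcn2*, and URE-AML had high levels of *S100a8*, *Ngp*, *Camp*, *S100a9*, *Lcn2* and *Cd177*. The 10 genes together made up 0.00543%, 0.00723% and 0.0107% of all counts in the Hox-WT libraries 1 to 3, and 0.0169%, 0.0108% and 0.0104% in those of Hox-URE. In URE-AML they made up 0.455%, 0.593% and 0.962%. The composition also differed. *Lcn2* alone gave 99.5% to 99.9% of the summed counts in Hox-URE, against 8.62% to 12.3% in Hox-WT and 3.0% to 8.27% in URE-AML. In URE-AML *S100a8* gave 34.7% to 52.5% and *Ngp* 14.4% to 42.4%. In bulk RNA of this kind, fewer cells that transcribe a gene and less RNA of it per cell cannot be told apart.

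**Figure D1:**
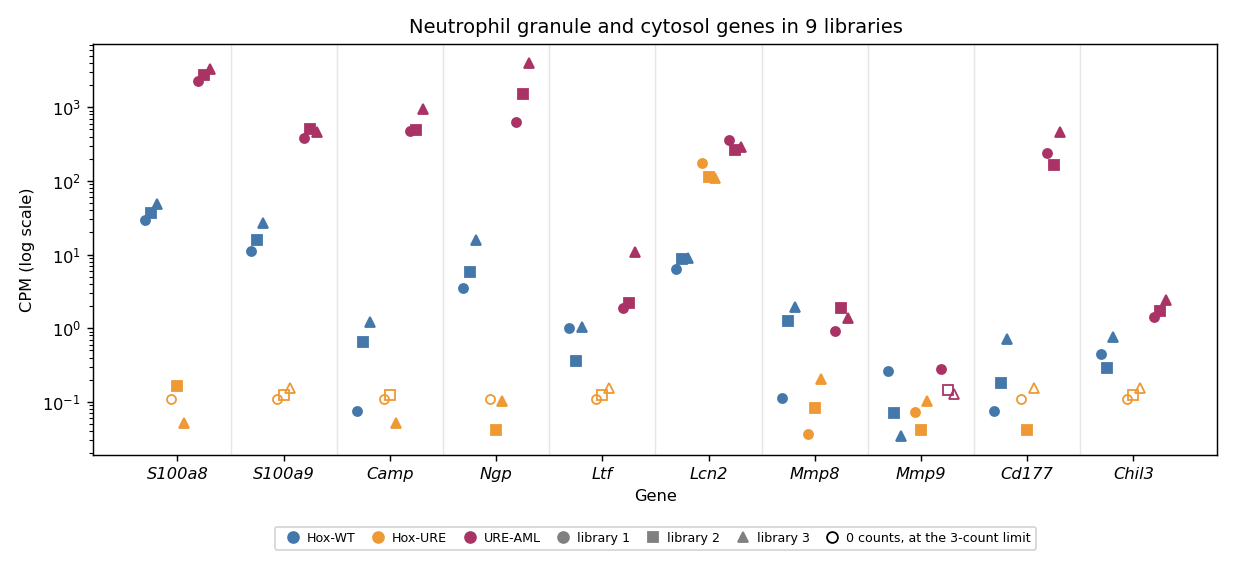
Level of each of the 10 genes in each of the 9 libraries, as CPM on a log axis. Colors are lines, shapes are library numbers, and open symbols are libraries with 0 counts, drawn at the CPM of 3 counts. The Hox-URE symbols lie at or below 0.204 CPM for every gene but *Lcn2*, which sits between 110 and 174 CPM there.

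Levels are given as CPM, the usual depth-scaled counts, which here were scaled by library total and TMM factor. Libraries held 20331064 to 28588718 counts, and 3 counts, the limit that a count of 0 allows, stood at 0.104 to 0.153 CPM. This limit and the intervals below cover counting error only. Lines were compared with edgeR, and a call required a false discovery rate (FDR, the Benjamini-Hochberg adjusted p) below 0.05 with more than 1.5-fold difference. Of the 54347 genes 13082 passed the filter on low counts and were tested, among them 9 of the 10 genes. The filter itself shapes these calls. Of the 10 genes 9 passed its cut of 0.391 CPM in all 3 URE-AML libraries, 4 in all 3 Hox-WT libraries and 1, *Lcn2*, in all 3 Hox-URE libraries. The others entered the test through the lines in which they were high. So 8 of the 9 were favored to differ from Hox-URE, although *Cd177* was not called between Hox-URE and Hox-WT. The 5 that missed the cut in a Hox-WT library (*Camp*, *Ltf*, *Mmp8*, *Cd177* and *Chil3*) were favored to be higher in URE-AML. The counts and medians below, those of the other gene lists included, are therefore descriptions and not evidence of a shared change.

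Against Hox-WT, 7 of the 9 tested genes were called lower in Hox-URE and 1 higher, where 15.9% of all tested genes were called lower and 21.3% higher. In URE-AML relative to Hox-WT 8 were called higher and 0 lower, with 23.0% and 20.2% of all tested genes. At an unadjusted p under 0.05 none was lower there, and DESeq2 also called 8 higher and 0 lower. In URE-AML relative to Hox-URE 9 were called higher and 0 lower, with 20.3% and 22.4% of all tested genes, none was lower at an unadjusted p under 0.05, and DESeq2 again gave 9 and 0. The median log2 fold change of the 9 was 5.23 in URE-AML relative to Hox-WT, with 0 as the median over all tested genes. For Hox-URE relative to Hox-WT it was -4.15 with genes at 0 in a line set to their bound, again beside 0 over all. The CPM ranges of the lines did not overlap for 8, 8 and 9 of the 9 genes in the 3 comparisons in this order, and for 60.3%, 67.6% and 62.8% of all tested genes. The comparisons share libraries, so they do not add up as independent evidence.

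The bases before the transcription start are shown for 5 of the genes: the calprotectin pair, *Ngp* and *Ltf* of the row on chromosome 9, and *Cd177*, the surface protein. *Camp* is left out because 89 bases of its window lie before the gene in GENCODE. The sequences are from RefSeq on GRCm38.p6, written 5′ to 3′ on the strand of the gene and ending at the base before the gene as GENCODE annotates it. Capitals mark matches on either strand to the C/EBP letters TTNNGNAA.
S100a8 (chr3:90668821-90668977, plus strand): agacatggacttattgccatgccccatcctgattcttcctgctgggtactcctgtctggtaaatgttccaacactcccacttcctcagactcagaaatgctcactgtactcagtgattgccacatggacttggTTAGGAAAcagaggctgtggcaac
S100a9 (chr3:90695722-90695971, minus strand): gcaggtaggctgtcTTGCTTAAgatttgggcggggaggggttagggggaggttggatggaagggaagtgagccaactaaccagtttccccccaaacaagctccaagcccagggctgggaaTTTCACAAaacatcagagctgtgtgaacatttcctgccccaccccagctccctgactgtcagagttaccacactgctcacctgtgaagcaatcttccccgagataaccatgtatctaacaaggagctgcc
Ngp (chr9:110419558-110419746, plus strand): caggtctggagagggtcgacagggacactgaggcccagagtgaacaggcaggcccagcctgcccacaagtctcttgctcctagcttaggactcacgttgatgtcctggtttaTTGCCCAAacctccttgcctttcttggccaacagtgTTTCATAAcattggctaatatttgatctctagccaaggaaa
Ltf (chr9:111019042-111019270, plus strand): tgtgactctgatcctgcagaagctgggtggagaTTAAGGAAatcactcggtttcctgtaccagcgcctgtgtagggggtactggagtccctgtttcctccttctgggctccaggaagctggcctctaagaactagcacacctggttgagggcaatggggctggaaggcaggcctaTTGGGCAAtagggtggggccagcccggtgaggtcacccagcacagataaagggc
Cd177 (chr7:24760312-24760561, minus strand): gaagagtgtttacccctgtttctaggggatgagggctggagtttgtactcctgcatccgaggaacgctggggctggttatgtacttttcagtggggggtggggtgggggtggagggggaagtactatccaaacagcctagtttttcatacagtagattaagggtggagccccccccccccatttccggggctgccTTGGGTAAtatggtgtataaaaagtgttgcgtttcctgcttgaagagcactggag

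RefSeq gave a promoter entry for 9 of the 10 genes, *Mmp9* being the other. In the 250 bases before the RefSeq start, 8 of the 9 held the C/EBP letters on at least 1 strand, as did 36.8% of all 32851 promoters. *Camp* held none in this window. The PU.1 letters GAGGAAGT lay in the windows of 2 genes, *S100a8* and *Mmp8*, and in 2.44% of all promoters. The RUNX letters TGTGGT lay in 1, *S100a9*, and in 14% of all. No C/EBP match overlapped one of the other motifs. *Lcn2*, which differed from the others in Hox-URE, held 1 C/EBP match like *S100a8* and *Cd177*. However, 0 bases of the *Lcn2* window lie before the gene in GENCODE, so its match is not upstream of the gene as annotated there. A match is a run of letters and not a binding event, and these libraries hold no measurement of binding.

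*S100a8* and *S100a9* encode the subunits of calprotectin, a cytosolic complex that withholds zinc and manganese from microbes and signals through TLR4. They lie on opposite strands of chromosome 3, 22596 bases apart (*S100a8* at 90668978 to 90670035 and *S100a9* at 90692632 to 90695721, GRCm38). The Hox-WT libraries had 29.6, 37.0 and 48.6 CPM of *S100a8*, and the URE-AML libraries 2300, 2760 and 3310. Hox-URE contributed 0, 4 and 1 counts. The ranges of the lines were thus far apart, with Hox-URE close to the limit of detection. The log2 fold change relative to Hox-WT was -8.99 ± 0.44 (SE, edgeR FDR = 1.47e-07) in Hox-URE and 6.18 ± 0.27 (SE, edgeR FDR = 3.56e-08) in URE-AML. The first of these rested on few counts and ran from -10.52 without Hox-URE library 2 to -8.34 without Hox-URE library 1. Between URE-AML and Hox-URE it was 15.18 ± 0.45 (SE, edgeR FDR = 3.98e-09), and 16.69 and 14.51 without the same libraries.

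*S100a9* followed the same order. It had 11.1, 16 and 26.5 CPM in Hox-WT and 378, 515 and 462 CPM in URE-AML. All 3 Hox-URE libraries had 0 counts. In Hox-URE it was lower by at least 139-fold relative to Hox-WT (edgeR FDR = 9.82e-06), and URE-AML exceeded Hox-WT by a log2 difference of 4.66 ± 0.32 (SE, edgeR FDR = 5.18e-06) and Hox-URE by at least 3510-fold (edgeR FDR = 3.38e-07). The counts of the subunits were also set against each other. In Hox-WT there were 2.66, 2.32 and 1.83 counts of *S100a8* for each of *S100a9*, and in URE-AML 6.08, 5.36 and 7.15. The mean log2 ratio was 1.17 in Hox-WT and 2.62 in URE-AML, and all 3 URE-AML libraries lay above all 3 of Hox-WT. A two-sided exact permutation test gave p = 0.1, the smallest that 3 against 3 libraries allow (0.15 after Benjamini-Hochberg adjustment over 3 pairs of genes chosen after their values were seen), so no such pair could pass 0.05.

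The listed S100 genes split in Hox-URE. This family of small calcium-binding proteins is encoded in a cluster on chromosome 3, and 8 of the 13 listed genes were tested. In Hox-URE 4 of these were called lower relative to Hox-WT (*S100a8*, *S100a9*, *S100a10* and *S100a11*) and 4 higher (*S100a1*, *S100a4*, *S100a6* and *S100a13*). *S100a10*, the partner of annexin A2, had 24.8, 29.0 and 30.3 CPM in Hox-WT and 0.109, 0.166 and 0.153 CPM in Hox-URE. *S100a11* had 29.6, 39.2 and 29.1 CPM in Hox-WT and 0.182, 0.124 and 0.255 CPM in Hox-URE. These widely expressed genes had log2 fold changes of -7.59 ± 0.31 and -7.44 ± 0.23 (SE, edgeR FDR = 4.59e-08 and 8.74e-09). *S100a6*, also called calcyclin, had 11.4, 13.3 and 14.7 CPM in Hox-WT and 184, 442 and 559 CPM in Hox-URE, a log2 fold change of 4.91 ± 0.38 (SE, edgeR FDR = 3.64e-06). In URE-AML all 8 were called higher relative to Hox-WT, from 0.73 for *S100a13* to 6.18 for *S100a8* on the log2 scale. *S100a2*, not listed and looked up after its values were seen, also passed the filter, with 6, 2 and 17 counts in Hox-WT, 3, 1 and 12 in Hox-URE and 1, 14 and 0 in URE-AML. It was called in no comparison (log2 fold change -0.31 ± 1.21 in Hox-URE and -0.39 ± 1.22 in URE-AML relative to Hox-WT, SE, edgeR FDR = 0.856 and 0.808). Of the 10 other tested genes within 250 kb of *S100a8*, 4 were higher and 0 lower in Hox-URE by the same calls, so its fall was shared by *S100a9* but by no other tested gene this close.

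**Figure D2:**
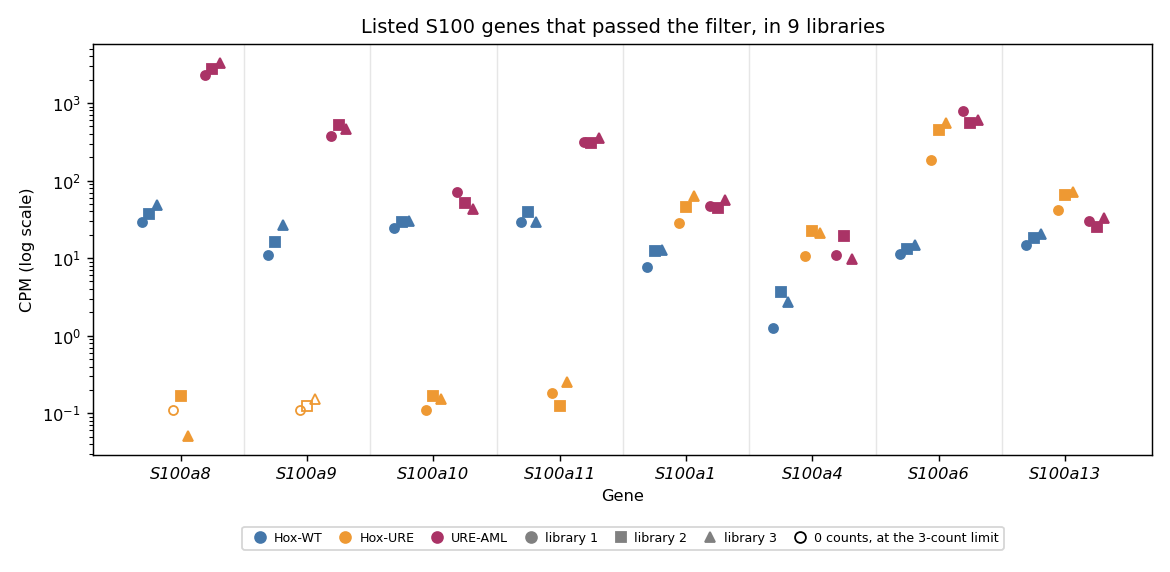
CPM on a log axis of the 8 listed S100 genes that were tested, in each of the 9 libraries, with colors for lines, shapes for library numbers and open symbols for 0 counts. The 4 genes on the left are lower in Hox-URE relative to Hox-WT and the 4 on the right are higher.

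*Camp*, *Ngp* and *Ltf* lie in a row on chromosome 9 with gaps of 570 and 596 kb. *Camp* (109847379 to 109849617) encodes the precursor of the antimicrobial peptide cathelicidin. Its Hox-WT libraries held 2, 18 and 35 counts, or 0.0749, 0.643 and 1.21 CPM, while those of URE-AML had 473, 492 and 954 CPM. In Hox-URE there were 0, 0 and 1 counts. *Camp* was thus at the edge of detection in Hox-WT library 1, and its log2 fold change in URE-AML relative to Hox-WT was 9.92 ± 0.55 (SE, edgeR FDR = 1.85e-07), or 10.74 without Hox-WT library 3. Hox-URE was called lower than Hox-WT, with a ratio of summed levels of 0.0214 (95% counting interval 0.000531 to 0.124, edgeR FDR = 0.0194). That call was lost without Hox-WT library 3, Hox-URE library 1 or Hox-URE library 2 (edgeR FDR = 0.0624, 0.0708 and 0.0589), and over all alternatives the FDR ran from 0.00108 to 0.0708. The ratio of URE-AML to Hox-URE was 45600 (95% counting interval 8190 to 1800000, edgeR FDR = 1.44e-07).

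*Ngp* (110419747 to 110423012) encodes neutrophilic granule protein, a relative of the cathelicidins and cystatins. It had 3.52, 5.85 and 15.8 CPM in Hox-WT and 630, 1530 and 4040 CPM in URE-AML. Hox-URE contributed 0, 1 and 2 counts of it. Its spread within lines was wide, with the highest library 4.5 times the lowest in Hox-WT and 6.41 times in URE-AML. Still, the lines did not overlap. The log2 fold change in URE-AML relative to Hox-WT was 7.94 ± 0.84 (SE, edgeR FDR = 2.09e-05), and it was 7.0 without URE-AML library 3 and 8.77 without Hox-WT library 3. The ratio of Hox-URE to Hox-WT was 0.00492 (95% counting interval 0.00101 to 0.0144, edgeR FDR = 0.00159), and that of URE-AML to Hox-URE 48800 (95% counting interval 16700 to 236000, edgeR FDR = 4.24e-06). Over the 19 alternatives that tested *Ngp*, the log2 fold changes of these comparisons ran from -8.45 to -6.65 and from 14.48 to 16.37, and both calls were kept. The counts of *Ngp* for each of *Camp* were higher in Hox-WT. Hox-WT libraries 2 and 3 had ratios of 9.11 and 13.1, library 1 having too few *Camp* counts for a ratio to be given, while the URE-AML libraries had 1.33, 3.11 and 4.24. The mean log2 ratio was 3.45 in Hox-WT without library 1, a setting chosen after seeing the data, and 1.38 in URE-AML, a difference of -2.07 (two-sided exact permutation p = 0.2, the smallest that 3 against 2 libraries allow). With library 1 the difference was -2.77 (two-sided exact permutation p = 0.1, or 0.15 adjusted over the 3 pairs). The third pair, *Olfm4* and *Camp*, differed by -0.66 (two-sided exact permutation p = 0.7) and by 0.20 without library 1 (p = 0.8). With so few libraries these tests could not pass 0.05 whatever the values.

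*Ltf* (111019271 to 111042767) encodes lactoferrin, the iron-binding protein that defines specific granules, and stayed low in every line. It had 1.01, 0.357 and 1.04 CPM in Hox-WT, 0 counts in each Hox-URE library and 1.86, 2.23 and 10.7 CPM in URE-AML. URE-AML library 3 stood well above the rest. The log2 fold change in URE-AML relative to Hox-WT was 2.62 ± 0.76 (SE, edgeR FDR = 0.0181). It was 1.34 without URE-AML library 3 (edgeR FDR = 0.0694) and 2.26 without Hox-WT library 2 (edgeR FDR = 0.0627), and 1.56 without both libraries numbered 3 (edgeR FDR = 0.0937), so the call was lost in these 3 settings, with a range of the FDR of 0.00093 to 0.0937 over the alternatives. In Hox-URE *Ltf* was lower by at least 6.22-fold relative to Hox-WT (edgeR FDR = 0.00871). Per kilobase of exon, the scale on which genes can be compared, URE-AML had 1.43 CPM of *Ltf*, against 844 of *Camp* and 1690 of *Ngp*. Neighbors were counted as well. Within 250 kb, 0 of 6 tested neighbors of *Camp* were called higher in URE-AML relative to Hox-WT, as were 1 of 11 of *Ngp* and 1 of 4 of *Ltf*, beside 23.0% of all tested genes, and with so few neighbors these shares cannot be told from that of all genes.

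*Lcn2* (chromosome 2, 32384633 to 32388252) encodes lipocalin 2, or NGAL, which binds bacterial siderophores. It was the exception in Hox-URE. It had 6.45, 8.60 and 9.13 CPM in Hox-WT, 174, 114 and 110 CPM in Hox-URE and 363, 263 and 285 CPM in URE-AML. The ranges of the 3 lines did not overlap, and the order was Hox-WT, Hox-URE and URE-AML. *Lcn2* was higher relative to Hox-WT by a log2 difference of 4.04 ± 0.23 (SE, edgeR FDR = 4.16e-07) in Hox-URE and 5.23 ± 0.24 (SE, edgeR FDR = 4.27e-08) in URE-AML. URE-AML exceeded Hox-URE by 1.19 ± 0.20 (SE, edgeR FDR = 0.000514). By CPM per kilobase it moved from rank 7519 in Hox-WT to rank 1137 in Hox-URE and rank 466 in URE-AML among 13076 tested genes with a length.

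*Mmp8* (chromosome 9, 7558456 to 7568485) encodes the collagenase of specific granules. It had 0.112, 1.25 and 1.94 CPM in Hox-WT, 0.0364, 0.0828 and 0.204 CPM in Hox-URE and 0.928, 1.90 and 1.37 CPM in URE-AML. Unlike the genes above it did not differ detectably between URE-AML and Hox-WT, with a log2 change of 0.34 ± 0.72 (SE, edgeR FDR = 0.712). An FDR of this size does not show that the levels were equal. It was called lower in Hox-URE relative to Hox-WT by -3.39 ± 0.95 (SE, edgeR FDR = 0.0123), although Hox-WT library 1 lay within the range of Hox-URE, and it was -2.71 without Hox-WT library 3 (edgeR FDR = 0.0486) and -4.14 without Hox-URE library 3. *Mmp9* (chromosome 2, 164940780 to 164955850) encodes gelatinase B, the enzyme that names the tertiary granules. Its libraries held 7, 2 and 1 counts in Hox-WT, 2, 1 and 2 counts in Hox-URE and 7, 0 and 0 counts in URE-AML, too few for a test. So *Mmp9* was barely detected in any line.

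*Cd177* (chromosome 7, 24743983 to 24760311) encodes a glycolipid-anchored protein of specific granule membranes and of the neutrophil surface that binds PECAM1. Its Hox-WT libraries held 2, 5 and 21 counts, its Hox-URE libraries 0, 1 and 0, and its URE-AML libraries had 236, 167 and 459 CPM. URE-AML was set apart from both Hox lines. Its log2 fold change relative to Hox-WT was 9.73 ± 0.59 (SE, edgeR FDR = 3.38e-07), or 11.06 without Hox-WT library 3. The difference between Hox-URE and Hox-WT was not called, with a ratio of 0.0419 (95% counting interval 0.00103 to 0.254, edgeR FDR = 0.0915). The call changed with the settings. DESeq2 gave an FDR of 0.00815 and leaving out Hox-WT library 3 gave 0.31, with a range of 0.0081 to 0.31 over the alternatives. *Chil3* (chromosome 3, 106147554 to 106167564) encodes the chitinase-like lectin Ym1, found in specific granules of mouse neutrophils and in macrophages. It had 0.450, 0.286 and 0.761 CPM in Hox-WT, 0 counts in Hox-URE and 1.41, 1.71 and 2.44 CPM in URE-AML. The log2 fold change in URE-AML relative to Hox-WT was 1.88 ± 0.45 (SE, edgeR FDR = 0.00756), and Hox-URE was at least 3.87-fold lower than Hox-WT (edgeR FDR = 0.000829). *Chil4*, a near-identical copy, was listed at 0 counts in every library, and how reads were split between the copies by the counting is uncertain. *Chil1*, called higher in URE-AML with *Chil5* and *Chil3*, had 2.06, 2.04 and 4.98 CPM there.

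Genes are compared with each other per kilobase of exon. On that scale the order in URE-AML was *S100a8* (4020 CPM per kilobase, rank 9 of 13076), *Ngp* (1690, rank 22), *S100a9* (866, rank 61), *Camp* (844, rank 63), *Lcn2* (116, rank 466) and *Cd177* (101, rank 546). Thereafter came *Ltf* (1.43), *Chil3* (1.14) and *Mmp8* (0.578), at ranks 9128 to 10415. The libraries of *S100a9* (725 to 986) and *Camp* (623 to 1260) overlapped, as did those of *Lcn2* (100 to 138) and *Cd177* (58.7 to 161), and *Ngp* (516 to 3310) overlapped with *S100a9* and *Camp* but lay below *S100a8* (3320 to 4770). So 6 of the 9 tested genes lay at 101 or above in this line and the other 3 at 1.43 or below. In Hox-WT the order was *S100a8* (55.3), *S100a9* (34.2), *Ngp* (6.88), *Lcn2* (3.07) and *Camp* (0.848), with the other 5 genes below 0.5. The ranges of *S100a8* (42.6 to 70.1) and *S100a9* (21.3 to 50.8) overlapped there. In Hox-URE *Lcn2* had 50.6 and no other gene exceeded 0.104.

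Library 3 was often the highest for these genes in Hox-WT and URE-AML. In Hox-WT library 3 was the highest for 9 of the 9 tested genes, whereas 31.0% of all tested genes were highest in it. In URE-AML library 3 was the highest for 6 of the 9, with 33.4% of all tested genes. The exceptions there were *Lcn2*, highest in library 1, and *S100a9* and *Mmp8*, highest in library 2. In Hox-URE library 3 was the highest for 3 of the 6 tested genes with counts, and *Lcn2* was highest in library 1. Several marker lists moved with URE-AML library 3. The summed CPM of 7 eosinophil markers was 14.1, 16.7 and 55.4 in libraries 1 to 3, with *Epx*, eosinophil peroxidase, at 7.71, 12.2 and 32.6, and that of 5 erythroid markers was 2.50, 1.76 and 13.6, with *Hba-a1* at 1.01, 0.38 and 7.46. That of 8 basophil and mast cell markers was 31.4, 39.1 and 62.7, with 4 of the 5 tested highest in library 3, and that of 7 primary granule genes 7560, 12400 and 17500, with 5 of the 6 tested highest there. Monocyte and macrophage markers went the other way in URE-AML, with sums of 350, 257 and 175. All 7 eosinophil markers had counts in URE-AML and 6 of them in Hox-WT. There the sum was 18.2, 22.7 and 20.1, of which *Siglecf* gave 16.6, 21 and 17.3, whereas *Epx* had 0.0375, 0.214 and 0.864 CPM and 3 of the 5 tested markers were highest in library 3. The sum of erythroid markers in Hox-WT was 0.450, 0.535 and 1.45, with *Hba-a1* at 0. In Hox-WT the sums of basophil and mast cell markers (483, 686 and 838) and of monocyte and macrophage markers (353, 426 and 445) were also highest in library 3, the latter with 5 of 8 tested markers. The part of these in the spread was not tested. With both libraries numbered 3 left out, a setting chosen after seeing the data, *Ngp* and *Camp* kept log2 fold changes of 7.84 and 10.34 in URE-AML relative to Hox-WT.

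**Figure D3:**
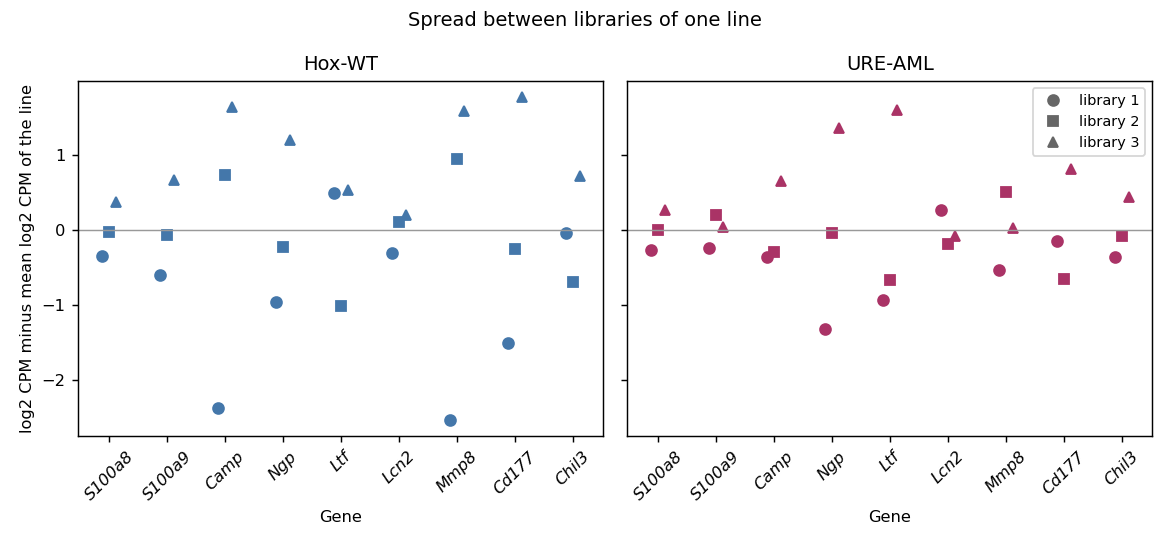
Deviation of each library from the mean log2 CPM of its line for the 9 tested genes, in Hox-WT (left) and URE-AML (right), with shapes for library numbers. Triangles, library 3, are the highest point for every gene in Hox-WT and for 6 of the 9 in URE-AML.

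Markers of other lineages differed between the lines as well. The summed CPM of 8 basophil and mast cell markers ran from 1610 to 5880 in Hox-URE, 483 to 838 in Hox-WT and 31.4 to 62.7 in URE-AML, with *Fcer1a* at 0 in both Hox lines. *Cpa3* gave most of it in Hox-URE and Hox-WT (means of 2660 and 547 CPM). Against the order of the sums, *Mcpt8* was called higher in URE-AML relative to Hox-WT (log2 fold change 1.92 ± 0.46, SE, edgeR FDR = 0.00449). Of the 5 tested markers 3 were called lower there, beside 20.2% of all tested genes. That of 10 monocyte and macrophage markers ran from 842 to 943 in Hox-URE, from 353 to 445 in Hox-WT and from 175 to 350 in URE-AML. In Hox-URE *Ccr2* gave nearly all, and *Csf1r*, *Klf4*, *Mrc1* and *Ms4a6c* were at 0. *Adgre1* gave most in Hox-WT (mean 274 CPM) and *F13a1* in URE-AML (mean 238 CPM), where *Ly86*, *Klf4* and *Ms4a6c* were at 0. Of the 8 tested markers *F13a1* alone was called higher in URE-AML relative to Hox-WT (log2 fold change 1.16 ± 0.35, SE, edgeR FDR = 0.0162), and 4 were called lower. The eosinophil markers summed to 0.255 to 1.45 in Hox-URE, against 18.2 to 22.7 in Hox-WT and 14.1 to 55.4 in URE-AML, with *Epx*, *Prg3*, *Ear1*, *Ear2* and *Ear6* at 0 in Hox-URE, so they were lowest there like most of the 10 genes. The 4 progenitor markers (*Kit*, *Cd34*, *Flt3* and *Hoxb8*, the gene of the fusion protein) summed to 1630 to 1870 in Hox-WT, to 815 at the lowest and 1270 at the highest among Hox-URE libraries, and to 92.7 to 99.6 in URE-AML. There *Flt3* and *Hoxb8* were at 0, *Cd34* had 1 count in all, and 4 of the 4 were called lower relative to Hox-WT, beside 20.2% of all tested genes. The call of *Hoxb8* is no result about a progenitor marker, because only the Hox lines were made with the fusion protein and its counts may come from that construct. Lymphoid markers summed to 34.5 to 47.0 over both Hox lines and at most 0.191 in URE-AML, and megakaryocyte markers to at most 40.7 in any library. The part of these in the differences of granule genes was not tested. *Ly6g*, the surface marker of mature mouse neutrophils, had 0 counts in Hox-WT, 0, 0 and 1.12 CPM in Hox-URE and 1.17, 1.19 and 4.89 CPM in URE-AML. *Retnlg*, another marker of mature neutrophils, had 0.0375, 0.178 and 0.173 CPM in Hox-WT, 0, 0.124 and 0.153 CPM in Hox-URE and 1.61, 1.52 and 1.54 CPM in URE-AML. Both were called higher in URE-AML relative to Hox-WT, by at least 22.4-fold and by 3.53 ± 0.62 on the log2 scale (SE, edgeR FDR = 0.00959 and 0.000715), while *Ly6g* was not called in URE-AML relative to Hox-URE (edgeR FDR = 0.095). Their levels lay below those of *Padi4* and *Stfa3*, given further on.

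The remaining specific granule proteins resembled the genes above in URE-AML and were mixed in Hox-URE. Of 9 listed genes 8 were tested, and 7 were called higher and 0 were lower in URE-AML relative to Hox-WT (median log2 fold change 4.71), against 1 higher and 3 lower in Hox-URE. *Olfm4*, olfactomedin 4 of a subset of specific granules, had 0.562, 0.821 and 1.52 CPM in Hox-WT, 0 counts in Hox-URE and 428, 960 and 1670 CPM in URE-AML. This is the pattern of *Camp*, with a log2 change of 10.02 ± 0.67 in URE-AML relative to Hox-WT (SE, edgeR FDR = 4.63e-06). *Hp*, haptoglobin, rose by 5.90 ± 0.33 (log2, SE, edgeR FDR = 1.69e-07) from 4.23, 8.53 and 7.64 CPM to 366, 403 and 452 CPM, and had 5.31, 9.57 and 11.4 CPM in Hox-URE. *Pglyrp1*, a peptidoglycan-binding protein, had 42.0, 61.5 and 55.8 CPM in Hox-WT, 1.42, 1.49 and 1.33 CPM in Hox-URE and 142, 147 and 268 CPM in URE-AML. *Slpi*, an inhibitor of elastase, was the gene called higher in Hox-URE. It had 11.4, 15.9 and 9.27 CPM in Hox-WT and 1300, 2090 and 2200 CPM in Hox-URE, above the 122 to 175 CPM of URE-AML, with log2 fold changes of 7.25 ± 0.31 in Hox-URE relative to Hox-WT and -3.69 ± 0.26 in URE-AML relative to Hox-URE (SE, edgeR FDR = 6.72e-08 and 1.22e-06). Thus *Lcn2* and *Slpi* were the secreted granule proteins called higher in Hox-URE among the 17 tested of both lists.

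Genes of the membranes of gelatinase granules and secretory vesicles moved in both directions. Of 10 listed genes 5 had counts in each Hox line and 8 in URE-AML, 6 were tested, and *Fpr1* and *Mme* were at 0 counts in all 9 libraries. In Hox-URE 3 were called higher and 1 lower relative to Hox-WT, and in URE-AML 3 and 2. *Adam8*, a metalloproteinase of granule membranes, had 3.41, 1.86 and 1.80 CPM in Hox-WT, 200, 188 and 202 CPM in Hox-URE and 282, 168 and 125 CPM in URE-AML. It was thus higher in both UREd/d lines, by log2 fold changes of 6.39 ± 0.36 and 6.35 ± 0.36 (SE, edgeR FDR = 4.14e-07 and 2.11e-07). *Itgam*, the CD11b integrin chain of secretory vesicles, had 4.61, 8.5 and 8.78 CPM in Hox-WT, 0 counts in Hox-URE and 0.686, 1.62 and 2.96 CPM in URE-AML. It was called lower in both, by at least 56.6-fold and by a log2 difference of -2.06 ± 0.51 (SE, edgeR FDR = 8.46e-05 and 0.00827).

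Genes of late neutrophils were mostly higher in URE-AML. Of 18 listed genes 16 were found in the table and 15 tested, with 10 called higher and 4 lower in URE-AML relative to Hox-WT (median log2 fold change 3.53) and 4 higher and 6 lower in Hox-URE. *Padi4*, the deiminase of histones in neutrophil extracellular traps, had 0.150, 0.0714 and 0.242 CPM in Hox-WT, 0.182, 0.497 and 0.817 CPM in Hox-URE and 168, 164 and 191 CPM in URE-AML, a log2 fold change of 10.09 ± 0.34 in URE-AML relative to Hox-WT (SE, edgeR FDR = 6.99e-09). *Mcemp1*, a membrane protein of mast cells and neutrophils, rose by 6.29 ± 0.31 there (log2, SE, edgeR FDR = 8.01e-08). *Stfa3*, a stefin, had 0 counts in both Hox lines and 89.1, 107 and 67.0 CPM in URE-AML, but the stefin genes are near-identical copies and the split of reads among them is uncertain. *Stfa2* and *Stfa2l1* were also called higher in URE-AML relative to Hox-WT, at means of 8.9 and 7.72 CPM. *Stfa1* was called lower (log2 fold change -4.64 ± 0.70, SE, edgeR FDR = 0.000246). *Anxa1*, annexin A1, and *Hdc*, histidine decarboxylase, went the other way, with log2 fold changes of 2.29 ± 0.24 and 1.82 ± 0.29 in Hox-URE and -1.43 ± 0.23 and -2.93 ± 0.31 in URE-AML relative to Hox-WT (SE, all called). *Csf3r*, the receptor of G-CSF, had 26.9 to 27.9 CPM in Hox-WT, 2.91 to 3.27 CPM in Hox-URE and 6.78 to 17.0 CPM in URE-AML, and was called lower in both UREd/d lines relative to Hox-WT (log2 fold change -3.16 ± 0.29 and -1.20 ± 0.26, SE, edgeR FDR = 1.03e-05 and 0.0025).

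Primary granule genes, made at the stage before, did not follow one direction. Of 7 listed genes 6 were tested, with 0 called higher and 3 lower in Hox-URE relative to Hox-WT, while URE-AML had 3 higher and 2 lower (median log2 fold change 0.28). *Elane*, neutrophil elastase, had 112, 234 and 196 CPM in Hox-WT, 8.84, 10.7 and 8.27 CPM in Hox-URE and 4290, 7120 and 10500 CPM in URE-AML. *Mpo*, myeloperoxidase, had 3290, 5950 and 5880 CPM in Hox-WT, 10.2, 2.82 and 2.14 CPM in Hox-URE and 192, 211 and 173 CPM in URE-AML. *Elane* thus shared the order of *S100a8*, with log2 fold changes of -4.28 ± 0.38 and 5.34 ± 0.39 relative to Hox-WT, while *Mpo* was lower in both UREd/d lines, by -9.93 ± 0.63 and -4.71 ± 0.49 (SE, all called by edgeR).

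**Figure D4:**
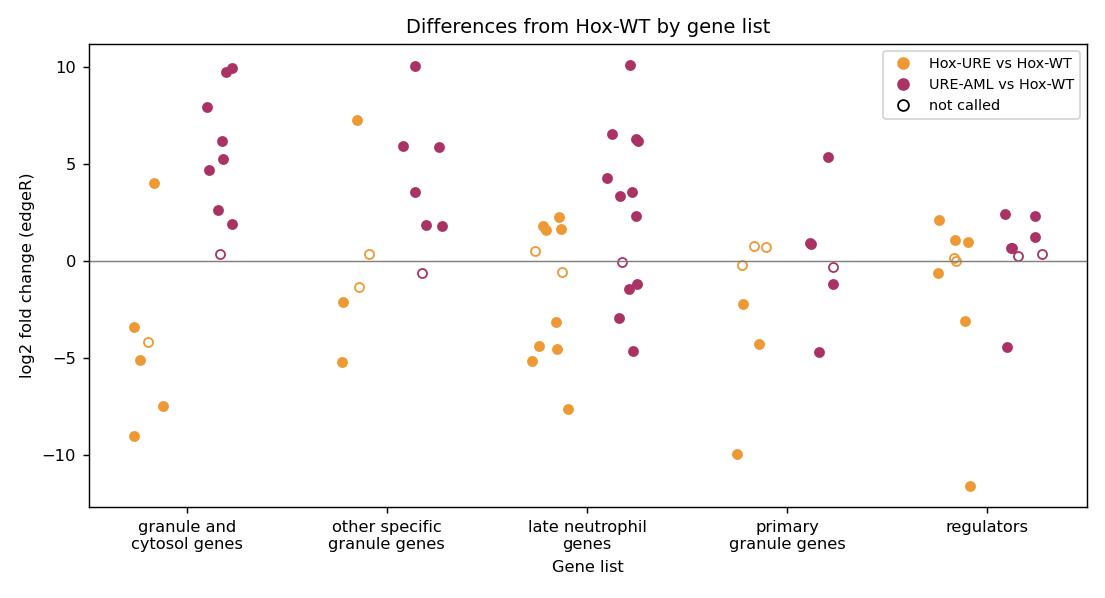
Log2 fold changes relative to Hox-WT from edgeR, for the tested genes of 5 lists that had counts in both lines compared. Orange points are Hox-URE, purple points URE-AML, and open points were not called. In the first list, that of the genes described above, *Lcn2* is the orange point above 0, and the purple points run from 0.34 to 9.92.

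Listed regulators of late granule genes, which are not all activators, were examined in the same libraries. *Cebpe*, which encodes C/EBPε, had 61.0, 55.9 and 43.8 CPM in Hox-WT, 5.02, 6.71 and 6.94 CPM in Hox-URE and 229, 284 and 338 CPM in URE-AML. The lines stood in the same order as for *S100a8*, and their ranges did not overlap. Its log2 fold change relative to Hox-WT was -3.11 ± 0.19 in Hox-URE and 2.41 ± 0.18 in URE-AML (SE, edgeR FDR = 8.09e-07 and 1.53e-06). *Cebpa*, the related factor of earlier stages, had 295 to 315 CPM in Hox-WT, 324 to 361 CPM in Hox-URE and 361 to 418 CPM in URE-AML, and was called in neither comparison with Hox-WT. *Cebpd* rose in both UREd/d lines, by 2.13 ± 0.15 in Hox-URE and 1.24 ± 0.15 in URE-AML (log2, SE, edgeR FDR = 2.25e-06 and 5.96e-05). It had 12.9 to 13.8 CPM in Hox-WT, 51.2 to 67.5 CPM in Hox-URE and 25.7 to 37.5 CPM in URE-AML, so URE-AML lay between.

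*Spi1*, whose enhancer is deleted, had 96.5 to 110 CPM in Hox-WT, 1, 1 and 0 counts in Hox-URE and 2.50, 5.52 and 6.35 CPM in URE-AML. URE-AML thus combined a low *Spi1* level with the highest level of most granule genes, and the levels do not follow one order over the 3 lines. *Gfi1*, a repressor needed for neutrophil maturation, had 135 to 151 CPM in Hox-WT, 82.6 to 102 CPM in Hox-URE and 146 to 201 CPM in URE-AML, and was called lower in Hox-URE only (log2 fold change -0.63 ± 0.13 in Hox-URE and 0.28 ± 0.13 in URE-AML relative to Hox-WT, SE, edgeR FDR = 0.00199 and 0.0805). Those of URE-AML and Hox-URE differed by 0.91 ± 0.13 (SE, edgeR FDR = 0.000155). *Lef1* and *Klf5*, a Wnt effector and a Krüppel-like factor of granulocytes, had 0 counts in both Hox lines and 4.42 to 6.01 and 6.80 to 7.15 CPM in URE-AML. Altogether 7 of the 10 listed factors were higher and 1 lower by the same calls in URE-AML relative to Hox-WT, and 3 higher and 3 lower in Hox-URE.

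**Figure D5:**
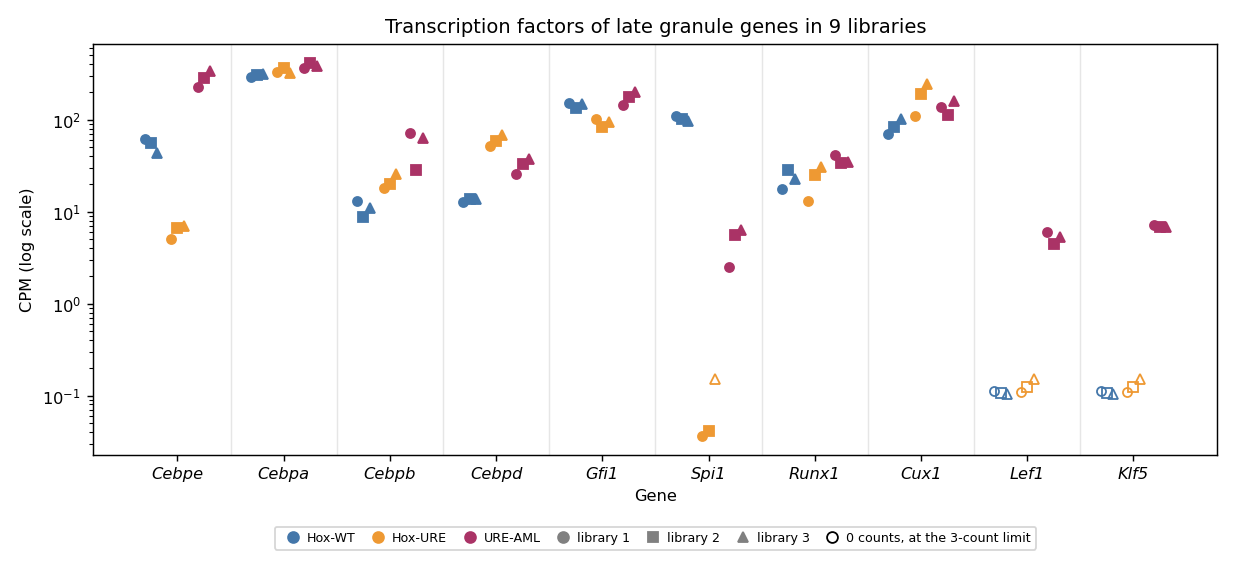
CPM on a log axis of 10 transcription factor genes in each of the 9 libraries, with colors for lines, shapes for library numbers and open symbols for 0 counts. *Cebpe* has the lowest level in Hox-URE and the highest in URE-AML, whereas *Spi1* is highest in Hox-WT.

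Genes whose proteins bind or inhibit those of the granules were partly present. Of 12 listed genes 6 were tested, with 4 called higher and 0 lower in URE-AML relative to Hox-WT, and 1 and 2 in Hox-URE. *Pecam1*, the partner of CD177, had 159 to 168 CPM in Hox-WT, 216 to 222 CPM in Hox-URE and 622, 787 and 834 CPM in URE-AML, a log2 fold change of 2.19 ± 0.11 in URE-AML relative to Hox-WT (SE, edgeR FDR = 1.08e-07). *Timp2*, an inhibitor of metalloproteinases, had 1 count over all Hox-WT libraries and 136, 105 and 123 CPM in URE-AML. *Tlr4*, a receptor of calprotectin, had 22.3 to 32.4 CPM in Hox-WT, 7.53 to 22.2 CPM in Hox-URE and 38.5 to 51.8 CPM in URE-AML. *Slc22a17* and *Lrp2*, which encode receptors of lipocalin 2, missed the filter and were not tested. *Slc22a17* had 0.45, 0.464 and 0.38 CPM in Hox-WT and 0 counts in both UREd/d lines, and *Lrp2* had 1 count in Hox-WT and 0 elsewhere.

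The genes outside the 10 that were most like 4 of them in level across the 9 libraries were found by the root mean square difference of log2(CPM + 0.1), each centered on its own mean. The 3 lines form 3 clusters, so closeness mostly reflects the means of the lines. For *S100a9* these were *S100a11* at 0.917 and *Sirpa* at 1.21, while *S100a8*, one of the 10, lay closer at 0.908. For *Camp* they were *Cstdc5* at 0.652 and *Olfm4* at 0.70, with *Cd177* of the 10 between them at 0.656. For *Ltf* they were *Prg2*, an eosinophil granule protein, at 0.401 and *Cebpe* at 0.686, with *Chil3* of the 10 between them at 0.637. For *Lcn2* they were *Gm29718* at 0.292 and *Afap1l1* at 0.32, while *S100a8* lay at 5.88 from it.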

How the data were processed

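Poly-A RNA was sequenced from 3 mouse cell lines with 3 stranded libraries each, and lines and replicate numbers were taken from the labels. Transcripts were quantified by the authors with salmon and aggregated by tximport. The values deposited are gene-level estimated counts in whole numbers, unscaled for depth. The submitters' processing notes name GRCm38 and Salmon. The transcriptome release, the salmon version and any scaling for transcript length are not given in the sources used here, so altered transcript use may change a count. All columns were used.

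Counts were analysed with edgeR 4.0.16 in R 4.3.3. The filter was filterByExpr (minimum count 10). It retained 13082 of 54347 genes and dropped 0.0499% of counts. TMM factors were 0.938 to 1.04. A quasi-likelihood model of all 9 libraries had line as its only factor (common biological coefficient of variation 0.173). FDR denotes the p of the two-sided F test after Benjamini-Hochberg adjustment across all tested genes. Calls needed FDR below 0.05 plus a change of more than 1.5-fold. Each SE was obtained as |log2 fold change| over the root of F. A fold against a line at 0 counts is a lower bound from 3 counts per library. With 1 to 3 summed counts the ratio of depth-scaled sums is given with an exact 95% counting interval. Exon lengths and positions came from GENCODE M21, in which 54094 identifiers were found. Promoters came from RefSeq (GRCm38.p6). Named genes were those of the 10, of lists of granule, late neutrophil, regulator, receptor, chitinase-like, S100 and cell type marker genes, and the 2 genes outside the 10 most alike in level for 4 of them. Neighbor windows were 250 kb. The 10 genes and all lists were chosen with earlier results of these data known. No pair of libraries agreed within sampling noise. The code was tested on simulated data, and figures were drawn with matplotlib 3.10.9.

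Tried as alternatives were RLE, upper-quartile and total-count scaling, no filter, a minimum of 10 counts in each library, fits to just the 6 libraries compared, the replicate block, DESeq2 1.42.0, no fold threshold, glmTreat, and leaving out each library. Leaving out both libraries numbered 3, and Hox-WT library 1 from ratios to *Camp*, was chosen after seeing the data.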

Additional observations from a re-analysis of the deposited data

How the results depend on the processing

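Of 511 alternative values of the 27 log2 fold changes, 499 kept their direction and side of the threshold, 7 lost the call, 4 gained it and 1 reversed. Requiring at least 10 counts in every library left only *Lcn2* tested, which gave 0 lower in Hox-URE against Hox-WT (7 before), 1 higher in URE-AML against Hox-WT (8 before) and 1 higher in URE-AML against Hox-URE (9 before). With only the 6 libraries compared, 4 of the genes were tested in Hox-URE against Hox-WT and 3 were lower. Without single libraries, Hox-URE had 6 to 8 genes below and 1 above Hox-WT, URE-AML had 7 to 8 above and 0 below Hox-WT, and 9 above and 0 below Hox-URE. *Mmp8* in URE-AML against Hox-WT, not called, was -0.19 without Hox-WT library 1 and 1.03 without both libraries numbered 3. *Mmp8* was not called lower in Hox-URE without both libraries numbered 3 (edgeR FDR = 0.069). *Cd177* was called lower in Hox-URE against Hox-WT with no filter (edgeR FDR = 0.0211), with DESeq2 (0.00815), without URE-AML library 3 (0.0289) and with the replicate block (-4.04, edgeR FDR = 0.0081). The log2 ratio of *Olfm4* to *Camp* in URE-AML against Hox-WT, not past the test, turned from -0.66 to 0.20 without Hox-WT library 1. The cause of these changes was not tested beyond the number of genes and libraries used.

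The replicate block gave 8 lower and 1 higher in Hox-URE against Hox-WT, 8 higher in URE-AML against Hox-WT and 9 higher in URE-AML against Hox-URE, and changed no other call. Deviations of same-numbered libraries from their line means correlated with r of 0.01 to 0.27, and those of others with -0.21 to 0.07. Since not all pairs passed 0.1, the numbers were not taken as pairing, although 8 of 9 libraries correlated best with their own number. Depth limits *Mmp9*, *Chil3*, *Ltf* and all but *Lcn2* in Hox-URE, where a few counts decide a value.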
